A study of Homo sapiens with 12 samples.

Results

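The S100 and annexin families were examined as 31 genes of the 19775 measured, 20 S100 genes and 11 annexin genes. A gene was taken as a member when its symbol in the platform annotation was S100A and a number, S100B, S100G, S100P or S100Z, or ANXA and a number, pseudogenes left out, and it was read from its probe set with the highest mean over the 12 arrays. The symbol rule uses no expression value, but the families were chosen with earlier results of these data known. The probe set was picked from the values of all arrays together. The data are log2 expression values from Affymetrix U133 Plus 2.0 arrays of 4 lines of human ovarian carcinoma cells, 3 arrays each, named IGROV1, TOV112D, TOV21G and SKOV3. All 4 are parental lines that were not treated, and the labels shorten TOV112D to T112D. SKOV3 was grown in DMEM and the other lines in RPMI, so for SKOV3 the line and the medium cannot be told apart. TOV112D comes from an endometrioid carcinoma and TOV21G from a clear cell carcinoma. No label tells whether the 3 replicates of a line are separate cultures, so the p-values cover the spread among replicate arrays only, and that spread may be technical.

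S100 proteins are small calcium sensors with EF-hand loops that mostly work as dimers. On binding calcium they expose a surface that grips partner proteins, among them cytoskeletal proteins, p53 and annexins, and some are secreted and act on receptors such as RAGE, the product of AGER. Annexins are built from repeated calcium-binding folds and attach to acidic phospholipids of membranes when calcium rises. They take part in exocytosis, membrane repair and the control of phospholipase A2, and ANXA2 forms a tetramer with S100A10 that binds plasminogen at the cell surface. Most S100 genes lie in a cluster at chromosome band 1q21, next to the genes of the cornified envelope, whereas the annexin genes are scattered over the genome. In carcinomas S100A4 and S100A6 are known as genes of motile cells, and ANXA4 is known for its high level in ovarian clear cell carcinoma.

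The labels were first set against known marker genes. ERBB2, which is amplified in SKOV3, was at 9.01 in IGROV1, 8.82 in TOV112D, 8.48 in TOV21G and only 8.14 in the arrays labelled SKOV3, so these arrays did not show the amplification and are called by their label only. SMARCA4 was low in TOV112D (7.11, against 10.15 to 10.39) and ARID1A in TOV21G (7.46, against 9.31 to 10.15). All 7 epithelial markers (EPCAM, CDH1, KRT7, KRT8, KRT18, KRT19 and MUC1) were called higher in IGROV1, and 6 of 7 were called lower in TOV112D. For the arrays labelled SKOV3, 5 of 7 were called lower, beside 8.01% of all genes, and 2 higher, beside 6.53%. Compared with TOV112D directly, 2 of the 7 were called higher in the arrays labelled SKOV3 and 1 lower. CDH1 and KRT19 were low in both, at 2.95 and 2.76 in those arrays and 3.20 and 3.02 in TOV112D. In TOV112D, KRT18 was at 5.01 and KRT8 at 5.29, while 4 of 7 fibroblast markers were called higher and 1 lower. COL3A1 was at 13.27 in TOV112D against 2.78 or less elsewhere and LUM at 11.50 against 2.25 or less, whereas COL1A2 was lower by a difference of -2.03. Of the Mullerian markers PAX8, WT1, SOX17, MSLN and MUC16, 4 of 5 were lower in TOV112D and 4 of 5 higher in IGROV1, and MUC16 was dim in all lines. Another 3 of 5 calls were lower in the arrays labelled SKOV3, and 1 was higher. Arrays of 1 line correlated at 0.9972 to 0.9976 over all genes.

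A gene was called for a line when its distance from the other 3 lines' mean was at least 1 on the log2 scale, which is 2-fold, with a Benjamini-Hochberg adjusted p under 0.05 over all 19775 genes (limma). The term set apart is used where the pairwise calls against all 3 other lines had 1 direction. A gene whose highest line mean stayed under 4.44, the median of all deposited values, was termed dim, because at that level a signal cannot be told from the floor of the scale. A difference from a line under that level has no exact size for the same reason. Of the 31 members, 11 were dim and 20 were not, beside 29.5% of all genes that were dim. The 4 line means of a member spanned at least 2 on the log2 scale in 13 members, 41.9%, beside 15.1% of all genes, and at least 4 in 7 members. Within a line the 3 arrays of a member that was not dim lay within 0.80 of each other. Levels are compared between lines for 1 gene at a time, since probe sets of different genes bind with different strength.

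**Figure D1:**
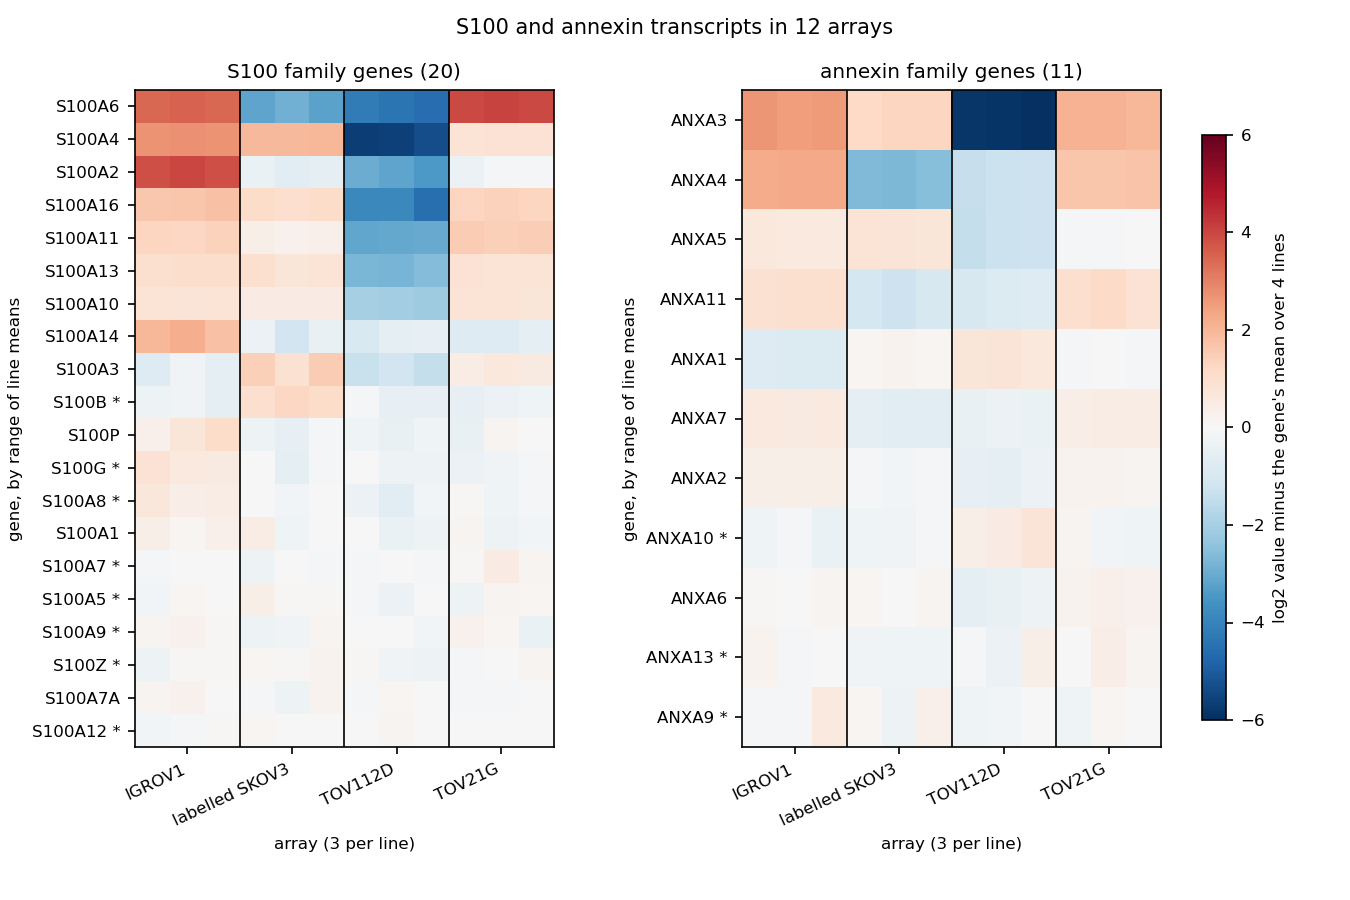
Each row is 1 of the 20 S100 genes (left) or 11 annexin genes (right) and each column 1 of the 12 arrays; colour gives the log2 value minus the gene's mean over the 4 lines, an asterisk marks a dim gene, and rows are ordered by the range of line means. The TOV112D columns are the lowest for ANXA3, S100A4, S100A6, S100A2, S100A16, S100A11, S100A13 and S100A10, and the arrays labelled SKOV3 are low for S100A6 and ANXA4.

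Many members had their lowest level in TOV112D. There, 12 of 31 members were called lower, 38.7%, beside 7.64% of all genes, and 0 were called higher, beside 7.03%. At an unadjusted p under 0.05 with no fold minimum, 21 members were lower and 2, ANXA1 and the dim ANXA10, were higher. The median difference of the members was -0.52, and that of all genes -0.02. With the mean of all probe sets of a gene, 11 were lower and ANXA1 was called higher. Set apart in TOV112D were 9 members, all lower, beside 2.38% of all genes. They were S100A2, S100A4, S100A6, S100A10, S100A11, S100A13, S100A16, ANXA3 and ANXA5. Epithelial and fibroblast markers also differed in this line. Over the 7 epithelial markers, none of them dim, the mean log2 value was 4.54 to 4.69 in the TOV112D arrays and 6.15 to 10.79 in the other 9. Of these 7 markers, 2 were set apart as lower in TOV112D, beside 2.38% of all genes. Over the 7 fibroblast markers, none of them dim, it was 8.27 to 8.46 in the TOV112D arrays and 3.93 to 5.37 in the others. Their part in the TOV112D results was not tested.

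S100A4, a partner of non-muscle myosin IIA that is linked to cell motility, measured 13.12, 13.12 and 13.11 in the IGROV1 arrays, 12.37, 12.36 and 12.38 in those labelled SKOV3, 4.76, 4.81 and 5.07 in the TOV112D arrays and 11.23, 11.26 and 11.25 in the TOV21G arrays. All 9 arrays outside TOV112D were above 11, and all 3 TOV112D arrays were near 5. The difference was -7.36 ± 0.06 (SE, limma, adjusted p = 5.6e-16). Among the other lines the order was IGROV1, the arrays labelled SKOV3, then TOV21G, and neighbouring groups of arrays did not overlap.

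S100A6, also called calcyclin, measured 12.34, 12.43 and 12.34 in the IGROV1 arrays, 5.74, 6.02 and 5.71 in those labelled SKOV3, 4.70, 4.52 and 4.34 in the TOV112D arrays and 12.87, 12.98 and 12.88 in the TOV21G arrays. It was high in IGROV1 and TOV21G and low in both TOV112D and the arrays labelled SKOV3, with no overlap between any of the groups. The TOV112D difference was -5.85 ± 0.08 (SE, adjusted p = 3e-14), and that of the arrays labelled SKOV3 was -4.11 ± 0.08 (adjusted p = 8.7e-13). The arrays labelled SKOV3 lay 1.30 ± 0.10 (SE) above TOV112D. Over both probe sets the mean gap was 0.735, and S100A6 was no longer set apart in TOV112D. Its second probe set was dimmer and ordered the lines alike, at 4.55, 3.32, 3.15 and 5.01 in IGROV1, the arrays labelled SKOV3, TOV112D and TOV21G.

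S100A16, a broadly expressed member of the same cluster, measured 11.28, 11.32 and 11.39 in the IGROV1 arrays, 10.76, 10.66 and 10.77 in those labelled SKOV3, 5.80, 5.77 and 5.12 in the TOV112D arrays and 10.94, 11.02 and 10.94 in the TOV21G arrays. The TOV112D arrays were the only ones under 10.6, and 1 of them was lower than the other pair by more than 0.6. The difference was -5.45 ± 0.12 (SE, adjusted p = 1.3e-12). S100A13, which takes part in the release of fibroblast growth factor 1, measured 10.49, 10.58 and 10.56 in the IGROV1 arrays, 10.46, 10.25 and 10.36 in those labelled SKOV3, 6.78, 6.74 and 6.91 in the TOV112D arrays and 10.39, 10.36 and 10.35 in the TOV21G arrays. The 9 arrays of the other lines lay between 10.25 and 10.58, and TOV112D differed by -3.61 ± 0.06 (SE). The second probe set of S100A13 stayed at 4.55 to 4.85 in all lines and did not show this difference. With the mean of both probe sets S100A13 was no longer called in IGROV1, TOV21G or the arrays labelled SKOV3.

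S100A10, known as p11 and the binding partner of ANXA2, measured 12.76, 12.70 and 12.74 in the IGROV1 arrays, 12.41, 12.42 and 12.41 in those labelled SKOV3, 9.93, 9.82 and 9.78 in the TOV112D arrays and 12.75, 12.73 and 12.65 in the TOV21G arrays. It was still well above the median of all values in TOV112D, and the difference there was -2.78 ± 0.05 (SE, adjusted p = 1.6e-13). S100A11, known as calgizzarin and a partner of ANXA1, measured 12.11, 12.08 and 12.20 in the IGROV1 arrays, 11.17, 11.08 and 11.14 in those labelled SKOV3, 7.73, 7.77 and 7.84 in the TOV112D arrays and 12.35, 12.26 and 12.33 in the TOV21G arrays. Every TOV112D array was below 8 and every other array above 11, with a difference of -4.08 ± 0.05 (SE). S100A11 was also lower in the arrays labelled SKOV3 than in TOV21G by a difference of -1.18 ± 0.06 (SE), whereas its difference between IGROV1 and those arrays, 0.997 ± 0.06, fell just short of the 2-fold minimum.

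S100A2, a target of p53 family factors in epithelial cells, took a different level in nearly every line. It measured 10.76, 10.89 and 10.76 in the IGROV1 arrays, 6.50, 6.23 and 6.31 in those labelled SKOV3, 3.92, 3.72 and 3.46 in the TOV112D arrays and 6.54, 6.82 and 6.80 in the TOV21G arrays. IGROV1 stood far above the rest, TOV112D far below, and the arrays labelled SKOV3 and TOV21G lay close together in between without overlapping. S100A2 was set apart as higher in IGROV1 (5.22 ± 0.10, SE, adjusted p = 5.5e-13) and as lower in TOV112D (-4.26 ± 0.10, adjusted p = 2.3e-12). S100A3, a gene known from hair follicles, measured 4.60, 5.18 and 4.86 in the IGROV1 arrays, 6.82, 6.33 and 6.92 in those labelled SKOV3, 4.05, 4.23 and 3.96 in the TOV112D arrays and 5.86, 6.02 and 5.96 in the TOV21G arrays. The arrays labelled SKOV3 were the highest, and the TOV112D arrays the lowest. It was called lower in TOV112D (-1.76 ± 0.13, SE) and higher in the arrays labelled SKOV3 (1.72 ± 0.13, SE), but was set apart in neither.

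**Figure D2:**
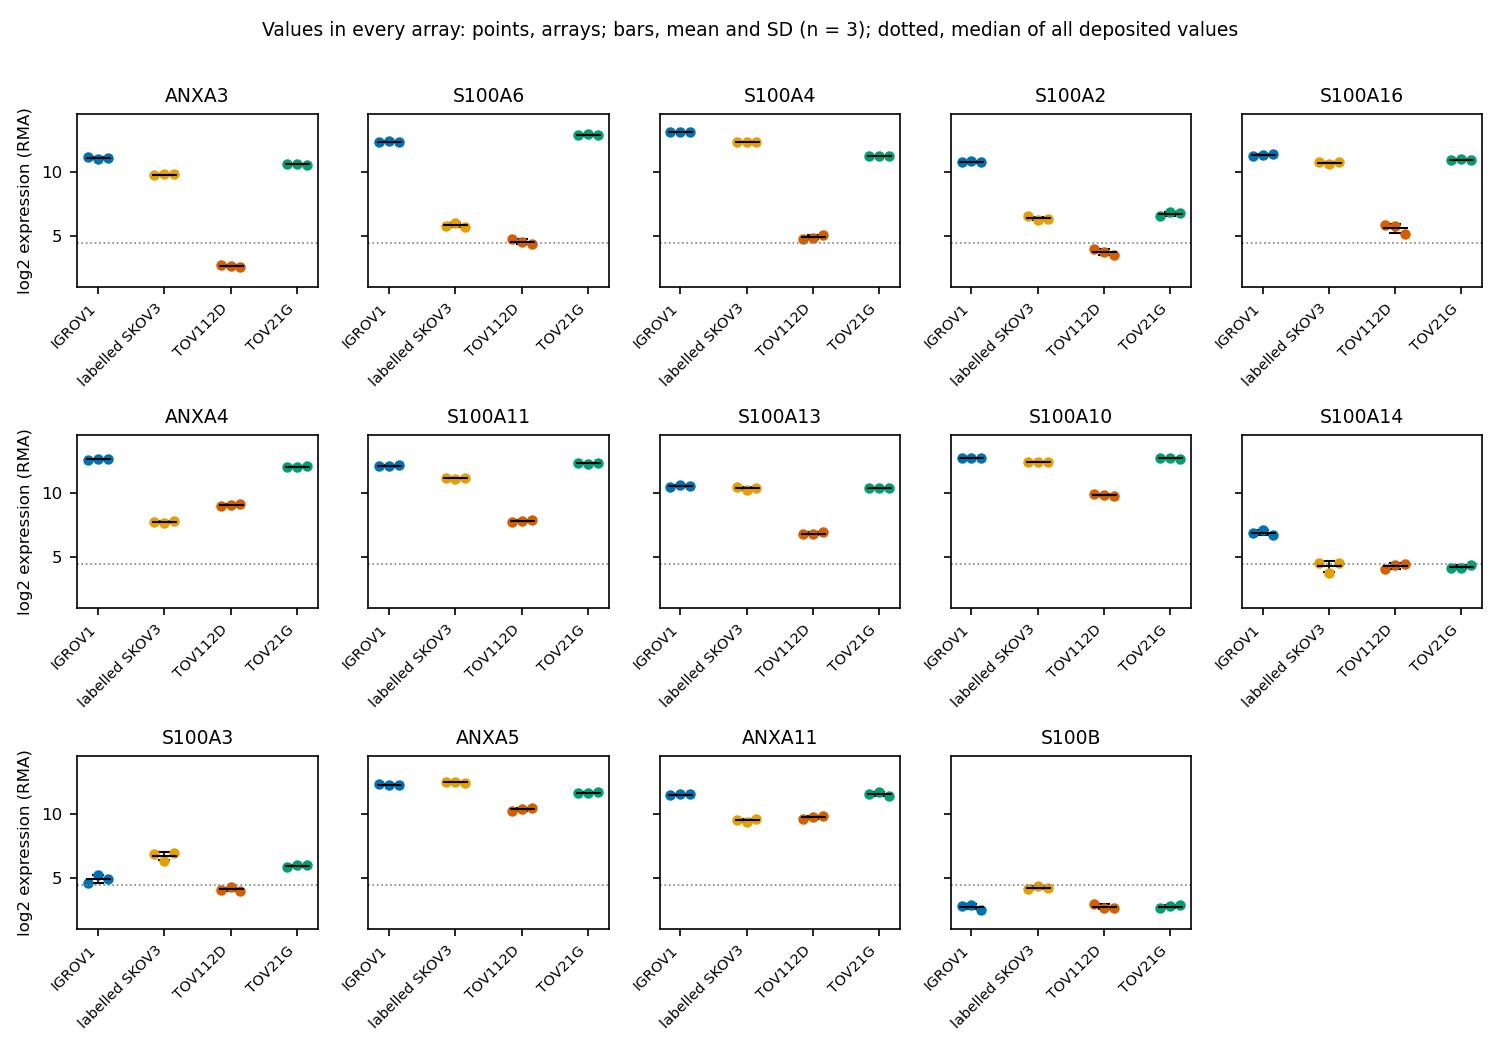
Log2 expression of 14 members in every array (points), with the mean and SD of each line (bars, n = 3) and the median of all deposited values, 4.44 (dotted). TOV112D is near or below the dotted line for ANXA3, S100A4, S100A6 and S100A2, and keeps S100A10 at 9.78 to 9.93.

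Of the annexins, 4 of 11 were called lower in TOV112D, beside 7.64% of all genes, and 0 higher, beside 7.03%, while at an unadjusted p under 0.05 with no fold minimum 7 were lower and 2 higher. ANXA3, known as an inhibitor of phospholipase A2, measured 11.16, 11.04 and 11.07 in the IGROV1 arrays, 9.72, 9.80 and 9.80 in those labelled SKOV3, 2.67, 2.63 and 2.51 in the TOV112D arrays and 10.62, 10.61 and 10.51 in the TOV21G arrays. The TOV112D arrays were far under the median of all values and all others above 9.7, a difference of -7.88 ± 0.05 (SE, adjusted p = 1.6e-16). ANXA5, the annexin used as a probe for exposed phosphatidylserine, measured 12.31, 12.28 and 12.28 in the IGROV1 arrays, 12.49, 12.48 and 12.44 in those labelled SKOV3, 10.24, 10.41 and 10.44 in the TOV112D arrays and 11.62, 11.63 and 11.69 in the TOV21G arrays. It was lower in TOV112D by a difference of -1.77 ± 0.05 (SE, adjusted p = 1.8e-11), with all TOV112D arrays below all others. ANXA4 and ANXA11 were also called lower in TOV112D, with differences of -1.74 and -1.12, but for both the arrays labelled SKOV3 were lower still. With the mean of all probe sets the ANXA11 difference was -0.995, under the minimum for a call.

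ANXA1 had its highest level in TOV112D. This annexin, a mediator of glucocorticoid effects that acts on formyl peptide receptors, had line means of 11.56 ± 0.02, 12.52 ± 0.04, 13.09 ± 0.08 and 12.31 ± 0.03 (SD, n = 3) in IGROV1, the arrays labelled SKOV3, TOV112D and TOV21G. TOV112D was the highest line and IGROV1 the lowest, with no overlap between any of the lines. IGROV1 was called lower by a difference of -1.08 ± 0.05 (SE, adjusted p = 7.4e-10), and TOV112D exceeded the other lines by 0.96 ± 0.05 (SE), just short of 2-fold. Averaged over both probe sets that difference was 1.549, and ANXA1 was called higher in TOV112D. The second ANXA1 probe set was dimmer and gave the same highest and lowest line, at 6.45 in TOV112D and 3.31 in IGROV1.

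Because all lines are compared with a mean over the other 3, the low TOV112D values also enter the comparisons of the other lines. In TOV21G, S100A4 was called higher by 1.13 (0.995, not called, with each array centred on its median), although its level there was below those of IGROV1 and of the arrays labelled SKOV3. S100A10 was likewise called higher in 2 lines, and S100A13, S100A16 and ANXA3 in 3 lines, and they were set apart in TOV112D alone.

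The arrays labelled SKOV3 had S100A6 and ANXA4 far below the mean of the other lines, with differences of -4.11 and -3.51. Of the 31 members, 7 were called higher, beside 6.53% of all genes, and 3 lower (S100A6, ANXA4 and ANXA11), beside 8.01%. At an unadjusted p under 0.05 with no fold minimum, 10 were higher and 12 lower. Set apart were 2 members, ANXA4 as lower and S100B as higher, beside 5.37% of all genes. The counts called lower and set apart are near the shares of all genes, so neither count is particular to the members. ANXA4, an annexin of secretory epithelia, measured 12.58, 12.64 and 12.64 in the IGROV1 arrays, 7.72, 7.67 and 7.81 in those labelled SKOV3, 8.99, 9.05 and 9.12 in the TOV112D arrays and 12.03, 12.02 and 12.08 in the TOV21G arrays. IGROV1 and TOV21G were high, TOV112D intermediate and the arrays labelled SKOV3 lowest, with no overlap. The difference was -3.51 ± 0.05 (SE, adjusted p = 4.2e-14), and the second probe set gave a difference of -3.43.

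ANXA11, which recruits the calcium-binding protein ALG-2 and tethers RNA granules to lysosomes, also had its lowest level there. It measured 11.50, 11.52 and 11.53 in the IGROV1 arrays, 9.52, 9.34 and 9.60 in those labelled SKOV3, 9.62, 9.77 and 9.82 in the TOV112D arrays and 11.56, 11.71 and 11.43 in the TOV21G arrays. IGROV1 and TOV21G overlapped with each other at the high level, and the arrays labelled SKOV3 lay just below those of TOV112D without overlapping them. The differences were 1.26 ± 0.07, -1.45 ± 0.07, -1.12 ± 0.07 and 1.32 ± 0.07 (SE) for IGROV1, the arrays labelled SKOV3, TOV112D and TOV21G, and all were called. ANXA7, or synexin, the annexin first described for fusing secretory granules, had line means of 11.31 ± 0.03, 10.11 ± 0.05, 10.34 ± 0.04 and 11.17 ± 0.03 (SD, n = 3) in IGROV1, the arrays labelled SKOV3, TOV112D and TOV21G. Its differences from the mean of the other lines stayed under 2-fold, with -0.84 in the arrays labelled SKOV3 as the largest in size.

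S100B, a glial and melanocytic S100 protein, measured 2.80, 2.87 and 2.48 in the IGROV1 arrays, 4.11, 4.32 and 4.19 in those labelled SKOV3, 2.96, 2.61 and 2.60 in the TOV112D arrays and 2.60, 2.74 and 2.82 in the TOV21G arrays. The arrays labelled SKOV3 were above all others, with a difference of 1.49 ± 0.10 (SE, adjusted p = 5.7e-08), but even there the level stayed under the median of all values. Its second probe set was at 1.90 to 2.10 in all lines, and with the mean of both the difference was 0.74, under the minimum.

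In IGROV1, 11 of 31 members were called higher and 1 lower, beside 7.20% and 7.10% of all genes. Set apart were S100A2 and S100A14, both higher, beside 2.62% of all genes. S100A14, a member found in epithelia, measured 6.88, 7.10 and 6.66 in the IGROV1 arrays, 4.53, 3.75 and 4.47 in those labelled SKOV3, 3.997, 4.37 and 4.42 in the TOV112D arrays and 4.12, 4.12 and 4.36 in the TOV21G arrays. IGROV1 was above the rest by 2.64 ± 0.16 (SE, adjusted p = 2.1e-08), and the other 9 arrays overlapped around the median of all values. The mean log2 value of the 7 epithelial markers was 10.78 to 10.79 in the IGROV1 arrays and 7.05 or less in the others, with CDH1 at 10.93 against 4.20 or less, and their part in the S100A14 and S100A2 values was not tested.

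In TOV21G, 9 of 31 members were called higher and 0 lower, beside 7.09% and 5.15% of all genes. At an unadjusted p under 0.05 with no fold minimum, 14 were higher and 4 lower. None was set apart by limma, beside 3.33% of all genes. At an unadjusted p with no fold minimum, 3 members were above each other line and 0 were below. They were S100A6, S100A11 and S100A7, the last of them dim at 2.92 in TOV21G. Of these, S100A6 had the widest gap to the next line, at 12.91 in TOV21G and 12.37 in IGROV1, a difference of -0.54 ± 0.10 (SE) for IGROV1 minus TOV21G. S100A3 was above IGROV1 and TOV112D there but below the arrays labelled SKOV3, and it was the 1 member set apart in TOV21G when those arrays were left out.

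Between pairs of lines, IGROV1 and TOV21G differed in the fewest members. Of 31, 4 were called, which is near the 12.6% of all genes. That share was also the lowest of any pair, so the low count is not particular to the members. S100A2, S100A4 and S100A14 were higher in IGROV1, by 4.09, 1.87 and 2.68, and S100A3 lower, by a difference of -1.06. IGROV1 and TOV112D differed in the most, 14, beside 18.0%, with ANXA1 the 1 member lower in IGROV1. TOV112D differed from the arrays labelled SKOV3 in 12 members, beside 16.1%, and from TOV21G in 12, beside 17.0%. Of the 12 that differed between TOV112D and the arrays labelled SKOV3, ANXA4 alone was lower in the latter, by a difference of -1.33. IGROV1 and the arrays labelled SKOV3 differed in 9 members, beside 18.8%, and TOV21G and those arrays in 7, beside 17.4%. S100A6, ANXA4, ANXA7 and ANXA11 were lower in the arrays labelled SKOV3 in both of these comparisons, which share the same 3 arrays. When its probe sets were averaged, ANXA7 differed from TOV21G by -0.977, under the minimum for a call.

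Line means of ANXA2 and ANXA6 stayed within 2-fold of each other. ANXA2, the annexin of the plasminogen-binding tetramer, had line means of 13.47 ± 0.01, 13.02 ± 0.04, 12.65 ± 0.08 and 13.31 ± 0.02 (SD, n = 3) in IGROV1, the arrays labelled SKOV3, TOV112D and TOV21G. TOV112D was the lowest by a difference of -0.62 ± 0.05 (SE), under 2-fold. The 3 bright ANXA2 probe sets are of the type whose probes can match other transcripts, and their values lie close to 13.999, the highest deposited value. ANXA6, the annexin with the longest core, ranged from 8.38 ± 0.14 in TOV112D to 9.06 ± 0.06 in TOV21G, and its TOV112D difference was -0.57 ± 0.07 (SE).

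The dim members were S100A5, S100A7, S100A8, S100A9, S100A12, S100B, S100G, S100Z, ANXA9, ANXA10 and ANXA13, whose line means ran from 2.43 to 4.38. They include S100A8, S100A9 and S100A12, the calgranulins of myeloid cells, and S100A7, the psoriasin of inflamed skin. S100A8 was at 3.80 in IGROV1 and 2.91 to 3.25 in the other lines, and S100A9 at 3.17 to 3.46. Of 11 monocyte and granulocyte markers 7 were dim too, among them CD14 (3.02 to 3.52) and LYZ (2.83 to 3.05). PTPRC was called higher in TOV112D, at 4.58 against 2.95 or less, and was the only 1 of the 11 that was called in any line. Of 6 squamous epithelium markers 5 were dim, and SFN, the gene of 14-3-3 sigma, ranged from 7.23 in TOV112D to 12.78 in IGROV1. S100A1, S100A7A and S100P were just above the median of all values in at least 1 line and were not called against the mean of the other lines. S100P, known from placenta and pancreatic carcinoma, was at 4.80 in IGROV1 and 3.79 to 4.02 elsewhere, and was called between IGROV1 and TOV112D, with a difference of 1.015. For ANXA8 the annotation pairs both probe sets with ANXA8L1, so it was not counted as a member.

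The members low in TOV112D included neighbours in the genome. On chromosome 1, 16 of the 20 S100 members fall into a block of 2, S100A10 and S100A11, and a block of 14 from S100A9 to S100A1, in the order of RefSeq genes of assembly GRCh38.p14. In the block of 14, 6 members were called lower in TOV112D, beside 7.64% of all genes, and each of them lies in the stretch from S100A6 to S100A13. Within that stretch S100A5 and S100A14 were not called, with differences of -0.22 and -0.85 and line means of 4.05 and 4.26 in TOV112D. The 10 measured protein-coding genes that follow S100A1 were not called in TOV112D by limma, 0 in either direction. Of all genes 7.03% were called higher there and 7.64% lower, and 0 among 10 genes is near these shares. Their median difference was 0.43, beside -0.02 for all genes. CHTOP, SNAPIN and ILF2, the nearest 3, differed by 0.40, 0.76 and 0.75. On the other side, THEM4, next to S100A10, differed by -3.73. Of the 10 genes before S100A10 4 were called higher in TOV112D and 2 lower, beside the same shares of all genes. The 24 genes between the blocks, mostly of the cornified envelope, were dim in 19 cases, and FLG was the 1 of them that was called. This set of neighbours was chosen after the members' values had been seen.

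**Figure D3:**
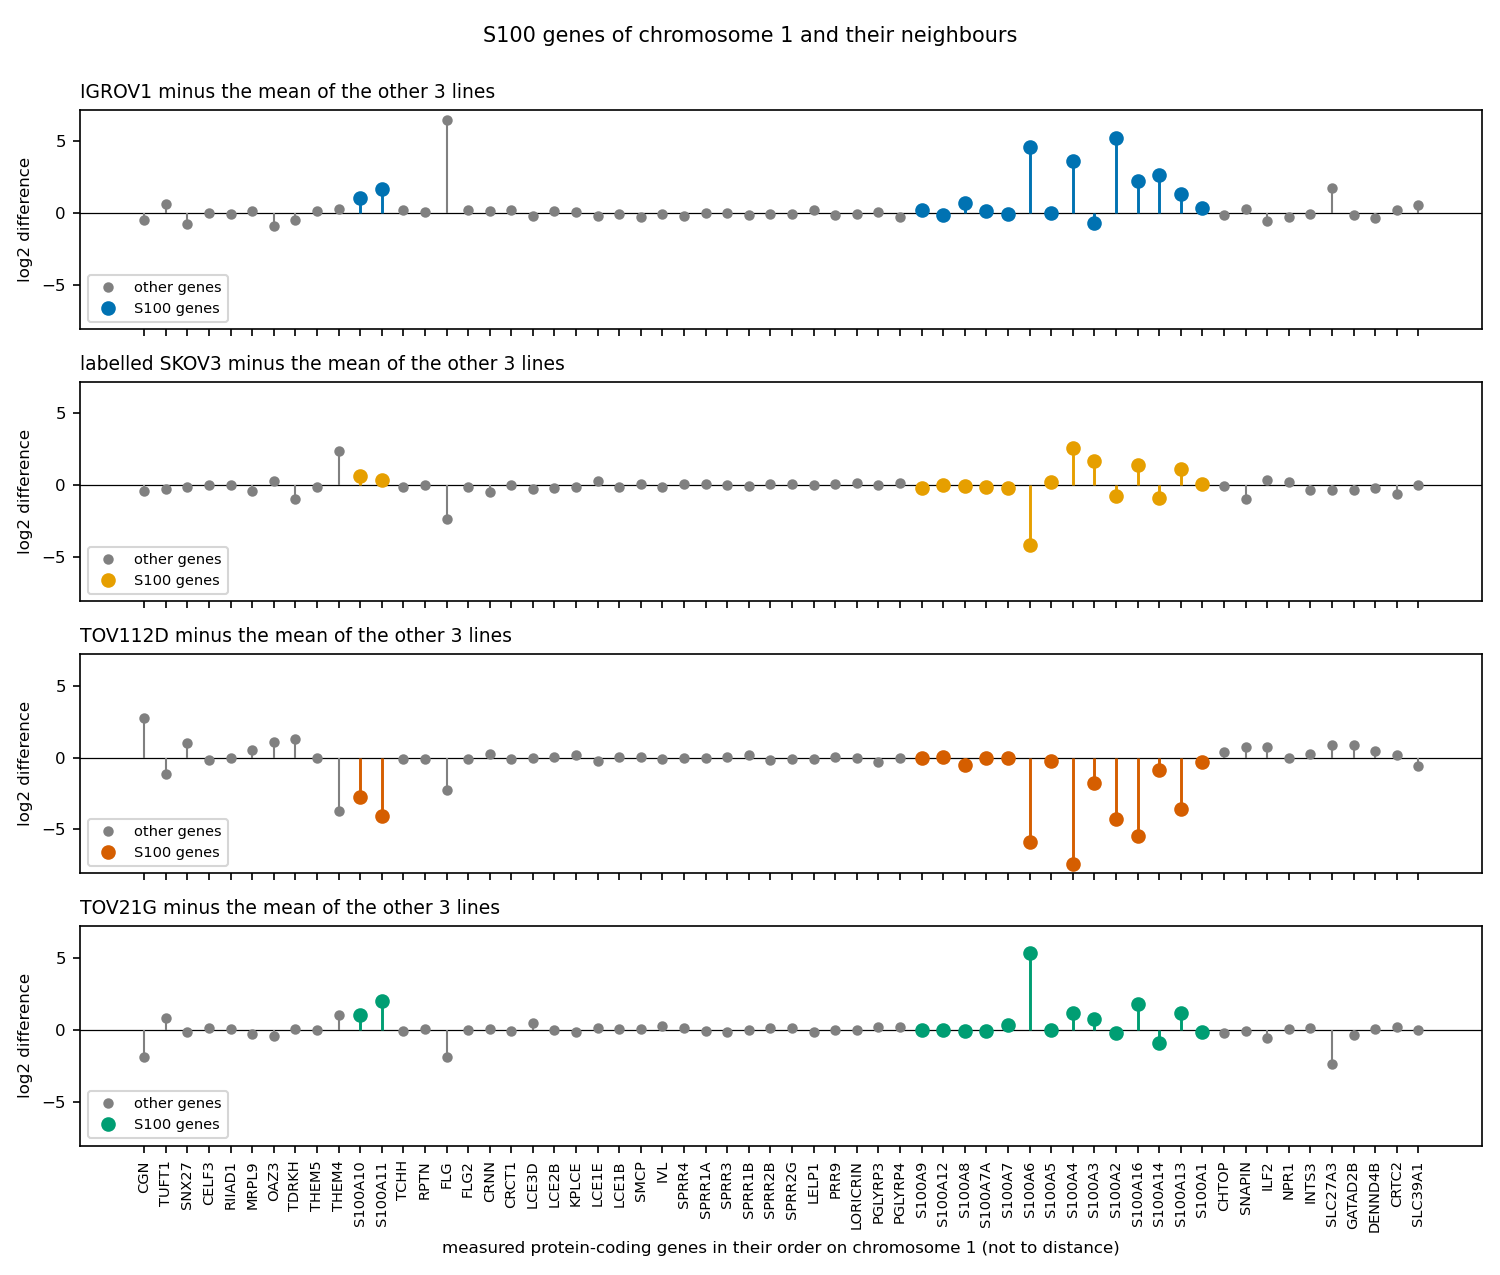
Difference of each line from the mean of the other 3 (log2, 1 panel per line) for the S100 genes of chromosome 1 (coloured) and the measured protein-coding genes around them (grey), in gene order and not to distance. In TOV112D the S100 genes from S100A6 to S100A13 reach down to -7.36, and the 10 genes after S100A1 stay between -0.56 and 0.90.

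Promoter sequences are shown for the 4 members with the widest differences in TOV112D and for S100A10, to set genes that were low together side by side. Each is the 250 bases before the start of the RefSeq gene in assembly GRCh38.p14, 5' to 3' on the gene's strand, at chr1:153545807-153546056, minus strand for S100A4, chr1:153535992-153536241, minus strand for S100A6, chr1:153613138-153613387, minus strand for S100A16, chr1:151993860-151994109, minus strand for S100A10 and chr4:78551520-78551769, plus strand for ANXA3. Capitals mark TATAAA (the TATA box), GGGCGG (the GC box), CCAAT and TGANTCA (the AP-1 motif), each on either strand, and overlapping matches run together.
S100A4: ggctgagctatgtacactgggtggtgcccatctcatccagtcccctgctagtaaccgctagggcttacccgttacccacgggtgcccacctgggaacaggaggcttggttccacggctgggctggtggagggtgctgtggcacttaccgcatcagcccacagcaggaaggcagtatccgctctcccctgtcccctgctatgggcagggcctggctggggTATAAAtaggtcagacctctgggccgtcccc
S100A6: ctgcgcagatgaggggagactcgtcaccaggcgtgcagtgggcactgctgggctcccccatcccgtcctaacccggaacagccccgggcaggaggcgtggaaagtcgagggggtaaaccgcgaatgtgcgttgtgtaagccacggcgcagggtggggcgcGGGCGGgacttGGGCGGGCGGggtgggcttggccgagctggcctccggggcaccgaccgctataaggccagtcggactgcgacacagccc
S100A16: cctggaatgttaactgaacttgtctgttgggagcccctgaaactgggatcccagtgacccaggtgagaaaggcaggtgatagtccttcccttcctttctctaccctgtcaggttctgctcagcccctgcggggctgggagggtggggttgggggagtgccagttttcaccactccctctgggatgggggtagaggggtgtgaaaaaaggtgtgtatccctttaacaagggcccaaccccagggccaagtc
S100A10: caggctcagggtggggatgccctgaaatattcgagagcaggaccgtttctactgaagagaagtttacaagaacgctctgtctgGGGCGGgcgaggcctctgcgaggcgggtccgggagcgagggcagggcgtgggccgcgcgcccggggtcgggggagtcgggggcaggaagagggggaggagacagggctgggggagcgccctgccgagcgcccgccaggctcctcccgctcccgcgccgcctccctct
ANXA3: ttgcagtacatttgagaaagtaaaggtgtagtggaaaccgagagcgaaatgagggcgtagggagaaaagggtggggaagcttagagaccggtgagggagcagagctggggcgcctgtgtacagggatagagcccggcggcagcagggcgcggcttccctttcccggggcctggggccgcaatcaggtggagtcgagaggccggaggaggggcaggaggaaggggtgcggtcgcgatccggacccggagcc

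These windows differed in motifs and CpG content. S100A4 holds 1 TATAAA, which 11.1% of all 27305 promoter windows of this length hold on either strand, and 7 CpG pairs. S100A6 holds 3 matches of GGGCGG, found in 42.3% of all windows, and 24 CpG pairs, and S100A10 holds 1 match and also 24 CpG pairs. S100A16 and ANXA3 hold none of the 4 motifs. S100A16 has 1 CpG pair and ANXA3 has 18, against a range of 0 to 36 over the 29 members with a window. All windows had a median of 11 CpG pairs, and 38.7% of them had 5 or fewer.

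Windows were found for 29 of the 31 members, and the dim members had few CpG pairs. All 9 dim members with a window had 5 or fewer CpG pairs, with a median of 4. So did 16 of all 29 members and 38.7% of all windows, so low counts were not limited to dim members. Of the 7 members whose line means spanned at least 4, 4 had 15 or more CpG pairs, as 42.7% of all windows had, and 2 had 5 or fewer, with a median of 15. TATAAA, found in 11.1% of all windows, was in 12 of the 29 members. They were 6 of the 9 dim members, 1 of these 7, 1 of 6 with a range of 2 to 4 and 4 of 7 with a range under 2, the last 2 groups not dim. CCAAT, found in 33.0% of all windows, was in 7 of the 29 members, and TGANTCA, found in 6.6%, was in 4, S100A2, S100A3, S100A12 and ANXA2. These are matches of letters in 1 window per gene, without data on binding or methylation.

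S100 genes were then set against the genes of their annexin partners within each array. Only the change of such a difference between lines can be read, not its size. S100A10 minus ANXA2 was -2.96 to -2.71 in TOV112D and -0.76 to -0.55 in the 9 other arrays. S100A10 was thus lower in TOV112D by more than ANXA2 was, with the limit that ANXA2 lies near the top of the scale. S100A11 minus ANXA1 was -5.38 to -5.17 in TOV112D and -1.49 to 0.65 elsewhere, with ANXA1 highest and S100A11 lowest in the same line. S100A11 minus ANXA6, another annexin that S100A11 binds, was -0.68 to -0.50 in TOV112D and 2.17 to 3.33 elsewhere. S100A6 minus ANXA11 was 0.82 to 1.45 in IGROV1 and TOV21G, -3.89 to -3.33 in the arrays labelled SKOV3 and -5.48 to -4.92 in TOV112D. Both genes of this pair were high in the same lines, S100A6 over a wider range. These pairs were chosen after the values had been seen and were not tested.

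**Figure D4:**
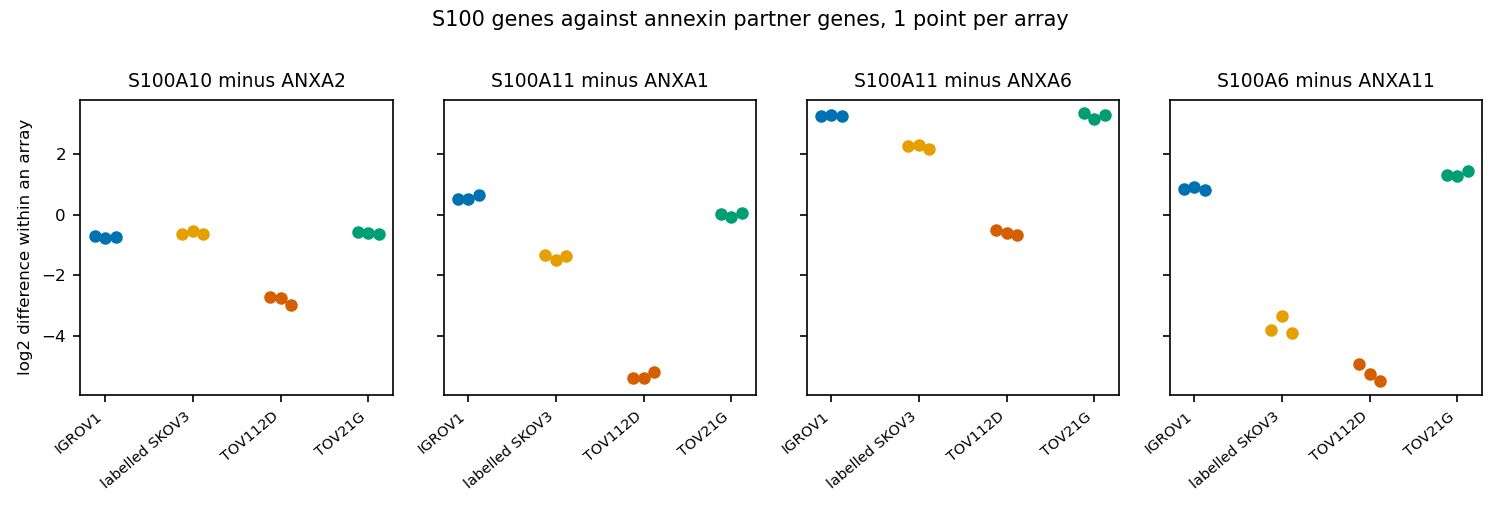
Log2 difference between an S100 gene and the gene of an annexin that it binds, within each array (1 point per array, 3 per line). TOV112D lies below all other arrays in each of the 4 pairs, at -2.96 to -2.71 for S100A10 minus ANXA2.

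Of 10 measured receptors and other extracellular partners of these proteins, 1 was higher in TOV112D, beside 7.03% of all genes, and 0 lower, beside 7.64%, where at an unadjusted p under 0.05 (limma) 1 was higher and 3 lower. The gene called higher was CD36, a scavenger receptor that binds S100A8 and S100A9, at 7.98 against 3.23 or less. In the arrays labelled SKOV3, 3 of 10 were called lower, beside 8.01% of all genes, and 0 higher, beside 6.53% (limma, with 3 lower and 3 higher at an unadjusted p). The 0 higher depended on the probe set of TLR4, a receptor gene of this list. Its chosen probe set had line means of 3.79 to 4.56 and a difference of 0.70 in those arrays, not called. With the mean of all its probe sets TLR4 was called higher there, by 2.15 ± 0.05 (SE). ALCAM, an adhesion molecule, was lower in the arrays labelled SKOV3 by a difference of -2.31, and ANXA2R, the annexin A2 receptor gene, by -1.04. The other gene called lower there was CD36, by -1.76. It was also called lower in IGROV1 (-1.45) and TOV21G (-1.66), since its high TOV112D level enters all these comparisons. Between those arrays and IGROV1 or TOV21G, CD36 was not called. Of the 10, only ALCAM was set apart in the arrays labelled SKOV3, beside 5.37% of all genes in either direction. AGER, the gene of RAGE, stayed at 4.47 to 4.78 and FPR1, a receptor of ANXA1, at 4.28 to 4.94, and neither was called.

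In plasminogen activation, the process served by S100A10 and ANXA2, 3 of 9 measured genes were lower in TOV112D, beside 7.64% of all genes, and 4 of 9 higher in TOV21G, beside 7.09%. In these lines 0 were called the other way (at an unadjusted p under 0.05, limma, 1 was higher in TOV112D and 0 lower in TOV21G). Set apart were 1 of 9 in TOV112D, lower, beside 2.38% of all genes, and 2 in TOV21G, both higher, beside 3.33% in either direction. PLAU, the urokinase gene, was at 4.43 in TOV112D and 8.34 to 11.29 elsewhere. PLAT, the gene of tissue plasminogen activator, was at 7.05 in TOV21G and 8.83 in the arrays labelled SKOV3, against 3.64 or less in the others. SERPINE2, an inhibitor of both enzymes, was highest in TOV21G at 11.86. F12, the coagulation factor XII gene, was highest in IGROV1 at 9.18 and lowest, at 4.53, in the arrays labelled SKOV3. It was also called higher in TOV21G, at 7.89.

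Among 16 intracellular partners, 4 were lower in TOV112D, beside 7.64% of all genes, and 1 higher, beside 7.03%. At an unadjusted p 9 were lower and 4 higher. Of the 16, 1 was set apart in TOV112D, lower, beside 2.38% of all genes. AHNAK, a scaffold that S100A10 and ANXA2 bind, was at 7.89 against 8.81 to 10.46. AHNAK2 was at 8.52 in IGROV1, 9.24 in TOV21G, 5.84 in TOV112D and 5.28 in the arrays labelled SKOV3. TAGLN2, an actin-binding protein gene, was lower in TOV112D by a difference of -2.46. MYH9, the gene of the myosin heavy chain that S100A4 binds, was 7.88 in TOV112D and 8.08 in IGROV1, against 5.51 and 5.60, and so did not share the order of the lines seen for S100A4.

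Genes of membrane repair and ESCRT-III, in which annexins take part, had 7 of 21 members called lower in TOV112D, beside 7.64% of all genes, and 0 higher, beside 7.03%, with 15 lower and 0 higher at an unadjusted p under 0.05 (limma). The median difference was -0.46, beside -0.02 for all genes. MYOF, the myoferlin gene, was at 4.13 in TOV112D and 9.84 to 11.96 elsewhere. The caveolin genes CAV1 and CAV2 were at 6.48 and 4.81 there, against 10.63 and 9.24 or more. CHMP4C, an ESCRT-III subunit gene, was at 2.70, against 7.57 or more. In TOV21G 8 of the 21 were called higher, beside 7.09%, and 0 lower, beside 5.15%, and 14 were higher and 2 lower at an unadjusted p. CAV1, CAV2 and CHMP4C were among the 8, although CAV1 was higher in the arrays labelled SKOV3 and the others in IGROV1. Set apart were 2 of 21 in TOV21G, both higher, beside 3.33% of all genes in either direction. In TOV112D 5 were set apart, all lower, beside 2.38%.

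Families of like biochemistry were counted as well. Of 34 other EF-hand sensors and buffers 2 were higher in TOV112D, beside 7.03% of all genes, and 2 lower, beside 7.64%, and the median difference was -0.05. EFHD1, a mitochondrial calcium sensor, was higher in TOV112D by 2.68. KCNIP1, a potassium channel subunit, was higher in TOV21G by 3.16, and NCS1, a neuronal calcium sensor, in IGROV1 by 1.83. RCN3, a calcium-binding protein of the endoplasmic reticulum, was lower in the arrays labelled SKOV3 by a difference of -1.68. Of 37 other proteins that bind phospholipids with calcium, 4 were higher and 7 lower in TOV112D, beside the same shares of all genes, with a median difference of 0.06. When all probe sets were averaged, 3 were higher and 4 lower. SYT11, a synaptotagmin gene, was higher there by 4.47. CPNE4, a copine gene, and SYTL5, a Rab27 effector gene, were higher in the arrays labelled SKOV3 by 4.77 and 3.91. PLA2G4A, the cytosolic phospholipase A2 that ANXA1 restrains, was at 7.15 in IGROV1 and 6.16 in TOV112D, and at 2.36 or less in the others. In the epidermal differentiation complex outside the S100 genes, FLG, the filaggrin gene, was at 8.89 in IGROV1 and at 2.60 or less elsewhere, and 18 of the 22 measured genes were dim.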

How the data were processed

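Total RNA of 4 ovarian cancer lines was hybridised to 12 Affymetrix U133 Plus 2.0 arrays, 3 per line. The deposited values are log2 expression made with affy and RMA, per the submitters' processing notes, with versions not given in the sources used here. RMA is known to compress low values, so differences between dim levels are understated. Of 54675 probe sets, 41097 were paired with 1 gene in the platform annotation, 1801 with several and 11777 were not listed. Each of the 19775 genes was read from its probe set with the highest mean over the 12 arrays. Groups came from the sample titles.

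All genes were fitted with limma 3.58.1 (R 4.3.3), with 1 mean per line over all 12 arrays, 4 contrasts of a line with the mean of the other 3 and 6 pairs of lines, and Benjamini-Hochberg adjustment within each contrast. The script was tested on simulated data. The precision is limited by the number of arrays, and the median SE was 0.077. Values in every array are given for members set apart in any line and those with the widest range of line means, 14 in all, and line means for the others. Context genes are up to 4 per list, those with the largest called differences and not dim. AGER, FPR1, CD14, LYZ and KRT8 were added for their known roles after their values were seen. TLR4 was added for its call with the mean of all probe sets. The members, lists and tests were chosen with earlier results of these data known. Alternatives were other normalisations and probe set rules, a trended prior, a replicate block, and leaving out dim genes, single arrays or the arrays labelled SKOV3. Promoters came from RefSeq (GRCh38.p14).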

Additional observations from a re-analysis of the deposited data

How the results depend on the processing

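With each array left out in turn, the members called against the mean of the other lines numbered 12 to 13 in IGROV1, 10 to 11 in the arrays labelled SKOV3, 12 to 13 in TOV112D and 9 to 10 in TOV21G. Between pairs they numbered 9 to 11 for IGROV1 and the arrays labelled SKOV3, 13 to 15 for IGROV1 and TOV112D, 3 to 4 for IGROV1 and TOV21G, 12 for the arrays labelled SKOV3 and TOV112D, 7 for those arrays and TOV21G, and 12 for TOV112D and TOV21G. Members set apart numbered 2 in IGROV1, 2 in the arrays labelled SKOV3, 9 in TOV112D and 0 in TOV21G.

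Members set apart in the arrays labelled SKOV3 were 1 with the mean of all probe sets and 1 without dim genes, since S100B is dim and its second probe set is flat. Without the arrays labelled SKOV3, 1 member was set apart in TOV21G, where only 2 comparisons had to be passed. No called difference of a named member changed sign under these alternatives, but among the receptors and extracellular partners the 1 gene called in IGROV1 was CD36, lower, whereas averaging all probe sets made it ALCAM, higher. With that setting S100A6 was no longer set apart in TOV112D, leaving 8, and ANXA1 was called higher there at 1.549. Of the calcium-dependent phospholipid binders, that setting called 5 and not 8 in the arrays labelled SKOV3, 7 and not 11 in TOV112D, and 5 and not 8 in TOV21G. Same-numbered arrays of different lines had deviations correlated at -0.1 to 0.128, so the numbers did not pair the arrays, and with the replicate number as a block 12 members were called in TOV112D, the same count as without it. With each array centred on its median, S100A10, S100A13 and S100A4 in TOV21G came to 0.917, 0.992 and 0.995, under the minimum for a call. With the mean of all probe sets, the calls under the minimum were ANXA11 at 0.905 in IGROV1 and -0.995 in TOV112D, S100A10 at 0.748 in IGROV1 and 0.529 in TOV21G, S100A13 at 0.445 in TOV21G, 0.642 in IGROV1 and 0.638 in those labelled SKOV3, and S100B at 0.744. Without the arrays labelled SKOV3, ANXA11 came to 0.867 in IGROV1 and 0.939 in TOV21G.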
